A study of Mus musculus with 60 samples.

Results

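The parotid gland was compared with the sublingual gland of the same mice. All libraries of these glands were taken from the deposited count table except those of 1 animal, C57 male 2, whose sublingual library held submandibular transcripts. That left 22 of the 60 libraries of the series, 11 for each gland, from 11 of its 12 animals. Each gland was represented by 3 CD1 males, 3 CD1 females, 2 C57 males and 3 C57 females. CD1 mice are outbred, C57 mice are inbred, and the labels give no treatment, genotype or age for either. The other libraries of the series came from submandibular gland, pancreas and liver. RNA was poly(A)-selected from whole glands, so acini, ducts, vessels, nerves and any attached tissue were read together.

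The parotid is the serous salivary gland. Its acinar cells fill granules with amylase and other soluble proteins and release them chiefly on beta-adrenergic stimulation through cyclic AMP. The sublingual gland is mostly mucous in the mouse. Its acinar cells make gel-forming mucins, which carry dense O-linked sugar chains added in the Golgi, and release them chiefly on muscarinic stimulation through calcium. In bulk RNA, fewer cells of a type and less RNA per cell cannot be told apart.

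Total counts were 39177980 to 66586067 per parotid library and 33755805 to 50044224 per sublingual library. The 10 most abundant genes of a library took 31.8% to 68.8% of parotid counts and 18.9% to 30.3% of sublingual counts. Levels are therefore given as CPM, counts scaled to a common library total, after scaling by the trimmed mean of M-values (TMM), which weighs the bulk of genes rather than the few that dominate. The scaling factors were 0.502 to 1.25 in parotid, so scaled CPM of the most abundant parotid genes can exceed their raw share. Ranges below are over the 11 libraries of a gland, with the median. Differences are log2 fold changes, parotid minus sublingual, with their standard error (SE, n = 11 animals). A gene was called when its adjusted p was under 0.05 and its fold change was at least 2.

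Other tissues were present in the parotid libraries in unequal amounts. Summed CPM of 7 B cell and lymphoid markers lay between 1.41 and 1360 in parotid (median 361) and between 2 and 6.69 in sublingual, and all 7 markers were called higher in parotid. The 4 parotid libraries from CD1 female 1 and the 3 C57 females summed to at most 27.2 CPM, and the other 7 to at least 191 CPM. Adipocyte markers summed to 50.1 to 6490 CPM in parotid and 8.38 to 96.2 CPM in sublingual, with 6 of 6 called. Skeletal muscle markers summed to 2.72 to 2850 CPM and 4.21 to 35.1 CPM, with 5 of 5 tested members called. Endothelial markers summed to 64.6 to 273 CPM and 24 to 45.3 CPM. Lacrimal markers reached 31000 CPM in the parotid library of C57 female 1 and 384 CPM or less in the other parotid libraries. Myoepithelial markers went the other way, with 72.1 to 550 CPM in parotid and 872 to 1730 CPM in sublingual. The part of these tissues in the gland differences was not tested. Counts of called list members below are set beside the count from the 4 animals whose parotid library was low in lymphoid markers. All of them were female and 3 of them C57. These parotid libraries were not low in other tissues throughout. Muscle markers summed to 2131 CPM in C57 female 2, 1733 CPM in C57 female 3, 614 CPM in C57 female 1 and 6.24 CPM in CD1 female 1. C57 female 2 also had the highest adipocyte sum, and C57 female 1 the lacrimal markers given above. For single genes the mean log2 difference within these 4 animals is given, on log2 of CPM plus 0.5, which understates differences of low genes. In the omitted sublingual library of C57 male 2, markers of submandibular granular tubules summed to 31100 CPM, against 809 CPM or less in the other sublingual libraries scaled with it. Its parotid library held lacrimal markers at 70500 CPM.

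**Figure D1:**
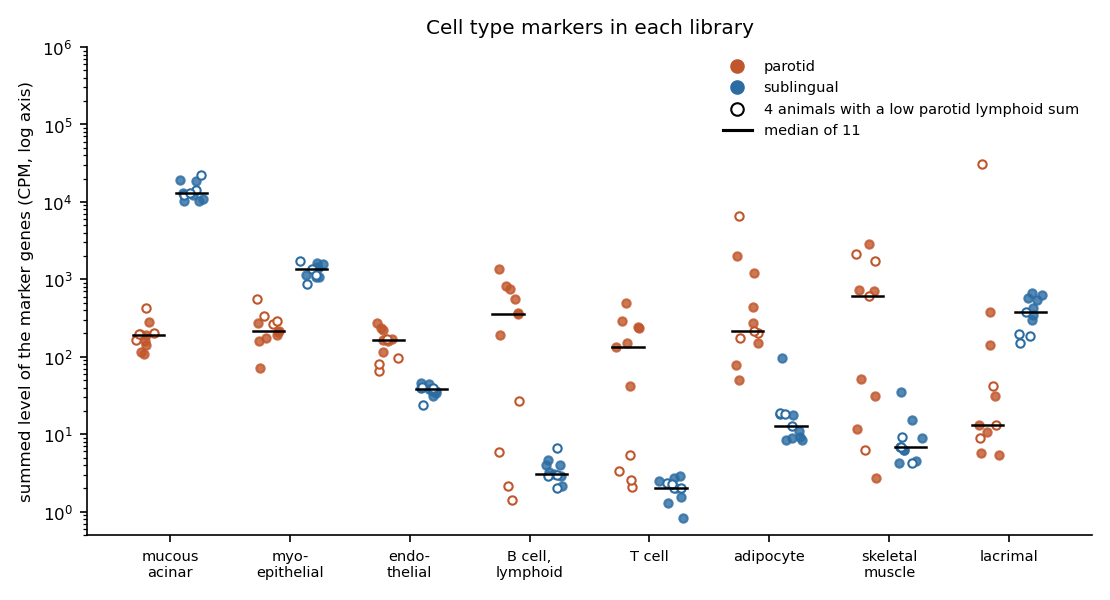
Summed CPM of each cell type's marker genes (log axis) in every parotid and sublingual library, 1 point per library. Parotid libraries spread from 1.41 to 1360 CPM for lymphoid markers and from 50.1 to 6490 CPM for adipocyte markers, while mucous acinar markers lie at 108 to 432 CPM in parotid and at 10100 to 22300 CPM in sublingual.

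The glands differed in a large share of their transcripts. Of 17148 genes tested, 4332 were called (25.3%), 2459 higher in parotid (14.3%) and 1873 higher in sublingual (10.9%). Differences of at least 16-fold were found for 222 parotid and 171 sublingual genes. The sublingual calls were the more even across animals. Of them, 1109 (59.2%) had every sublingual library above every parotid library, against 505 (20.5%) of the parotid calls without overlap, and over all genes tested the libraries did not overlap for 12.8%, with 9.41% both called and without overlap. The same sign in all 11 animals was seen for 1514 sublingual and 1062 parotid calls. In the 4 animals low in lymphoid markers the fit called 1384 genes higher in parotid and 1337 higher in sublingual. These held 979 of the 2459 parotid calls (39.8%) and 1105 of the 1873 sublingual calls (59%), and no gene was called in the opposite direction. The shares of all genes given with the lists below are those of the fit of 11 animals. List counts from the 4 animals are to be read beside this general loss of calls. A lower count there is not by itself a result about the list.

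**Figure D2:**
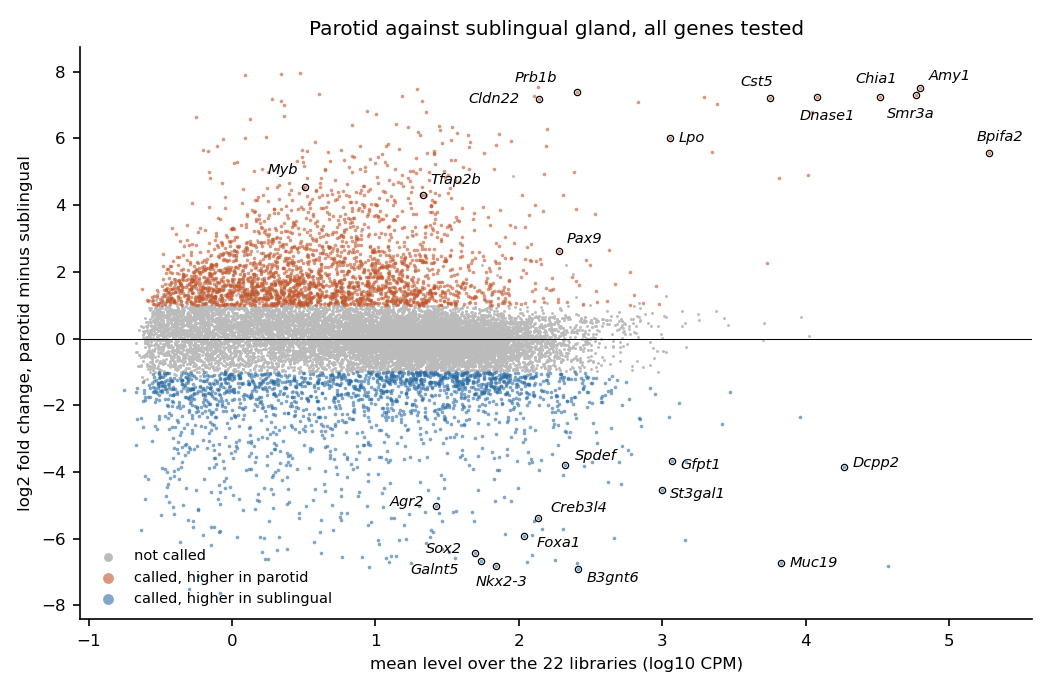
Log2 fold change of every gene tested against its mean level over the 22 libraries (log10 CPM), with called genes coloured by gland. Amy1, Smr3a and Dnase1 stand at the upper right, and Nkx2-3, Muc19 and B3gnt6 at the bottom, at 6 or more log2 units from 0.

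Amylase and a group of small secreted proteins led the parotid side. Amy1, salivary amylase, lay between 29200 and 250000 CPM in parotid (median 121000) and between 398 and 2290 CPM in sublingual (median 568). The glands did not overlap, and the difference was 7.51 ± 0.58 (adjusted p = 3.66e-07). Smr3a, a submaxillary androgen-regulated protein family member, was at 30100 to 225000 CPM against 379 to 2250 CPM (7.31 ± 0.56, adjusted p = 3.55e-07). Chia1, an acidic chitinase, was at 17400 to 121000 CPM against 187 to 1610 CPM (7.24 ± 0.52, adjusted p = 1.94e-07). Every parotid library exceeded every sublingual one for both. Dnase1, a secreted nuclease, and Cst5, a cystatin that inhibits cysteine proteases, differed by 7.24 ± 0.45 and 7.20 ± 0.39. The proline-rich protein genes Prb1b, Prb1a and Prb1c differed by 7.38 ± 0.46, 7.27 ± 0.46 and 6.29 ± 0.28. Amy1, the Prb genes and Smr3a belong to families of close copies, so how reads were divided among copies is uncertain.

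The remaining leading parotid genes were of several kinds. Crisp1, a cysteine-rich secretory protein, was at 1650 to 8560 CPM in parotid and 13.5 to 141 CPM in sublingual. Lpo, lactoperoxidase, an antimicrobial enzyme of saliva, was at 420 to 4050 CPM against 12.6 to 58.7 CPM. Cldn22, a claudin of tight junctions, was at 75.8 to 405 CPM against 0.921 to 5.25 CPM, and Dusp26, a phosphatase, at 11.3 to 137 CPM against 0.153 to 1.42 CPM. Adora1, the A1 adenosine receptor, which couples to Gi, was at 14 to 114 CPM against 0.634 to 1.63 CPM (6.16 ± 0.30, adjusted p = 7.34e-09). For these 5 genes no parotid library reached down to the sublingual range. Bpifb1, a bactericidal/permeability-increasing fold protein, overlapped between glands, at 1.61 to 700 CPM (median 16.8) against 0 to 3.83 CPM, with the highest value in CD1 female 1. Adipoq, the adipocyte hormone adiponectin, also overlapped, at 3.3 to 600 CPM (median 21.2) against 0.104 to 9.22 CPM, with its highest value in C57 female 2, which also had the highest adipocyte marker sum.

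The leading sublingual genes included a protease inhibitor, a gel-forming mucin and O-glycan enzymes. A2ml1, an alpha-2-macroglobulin-like protease inhibitor, was at 56900 to 92500 CPM in sublingual (median 74000) and 292 to 1510 CPM in parotid (-6.82 ± 0.46, adjusted p = 1.05e-07). Muc19, the gel-forming mucin of this gland, was at 9400 to 21500 CPM (median 12200) against 50.9 to 276 CPM (-6.73 ± 0.37, adjusted p = 1.97e-08). Smgc, the submandibular gland protein C gene, was at 810 to 5940 CPM against 15 to 82.4 CPM. It shares its listed start with Muc19, so reads of these overlapping genes cannot be fully separated. B3gnt6, the enzyme that builds core 3 O-glycans, had the largest difference of the named genes on this side, at 393 to 654 CPM against 1.66 to 10.7 CPM (-6.92 ± 0.30, adjusted p = 2.56e-09). All 15 leading sublingual genes had every sublingual library above every parotid library.

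The other leading sublingual genes included regulators, a cargo receptor, a calcium sensor and a channel subunit. Nkx2-3, a homeobox factor, was at 109 to 167 CPM in sublingual and 0.571 to 2.29 CPM in parotid (-6.80 ± 0.21, adjusted p = 2.53e-10). Sox2, a factor of progenitor cells, was at 79.8 to 122 CPM against 0.509 to 2.21 CPM, and Foxa1, a forkhead factor, at 183 to 229 CPM against 0.959 to 60.5 CPM. Lman1l, related to the lectin that carries glycoproteins out of the endoplasmic reticulum, was at 335 to 583 CPM against 2.54 to 10.9 CPM. Galnt5, which starts O-glycan chains, was at 83.2 to 131 CPM against 0.389 to 2.41 CPM. Syt7, a calcium sensor of exocytosis, was at 195 to 272 CPM against 2.07 to 8.09 CPM. Kcne1, a potassium channel subunit, was at 204 to 272 CPM against 0.935 to 5.58 CPM. Tmc5, Serpinb11, Mup6 and Sel1l3 completed the 15, with differences between -6.68 and -5.98. Serpinb11 and Mup6 have close relatives in the genome and are uncertain in the same way.

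The leading genes were compared with their levels in the other gland, liver, pancreas and submandibular gland. The 15 leading parotid genes stood in sublingual at 0.6% to 1.61% of their parotid level (median 0.767%), at 0.544% to 44.2% in liver (median 0.888%) and at 1.3% to 125% in pancreas (median 2.21%). The 15 leading sublingual genes stood in parotid at 0.883% to 4.3% of their sublingual level (median 1.1%), at 0.89% to 18.8% in liver (median 1.05%) and at 2.15% to 11.5% in pancreas (median 2.85%). For most leading genes the share in the other gland was close to that in liver. Examples were Amy1 (0.6% and 0.987%), Cst5 (0.771% and 0.812%), Muc19 (0.943% and 1.02%) and Nkx2-3 (0.895% and 0.929%). Such levels in the lower gland cannot be told from those in an unrelated tissue. The size and rank of these fold changes rest on them. Whether the lower gland itself made these transcripts was not tested. The highest shares outside the salivary glands were those of Dusp26 in pancreas (125%), Adora1 in liver and pancreas (44.2% and 43.9%) and Foxa1 in liver (18.8%). In submandibular gland, Lpo, Adora1 and Crisp1 stood at 56%, 33.6% and 14.1% of their parotid level. Smgc and Foxa1 stood there at 75.6% and 26.2% of their sublingual level, and the other leading genes at 5.98% or less.

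Promoter sequence is shown for 6 of the named genes to let the letters near their starts be read beside the levels. Windows came from RefSeq on GRCm38.p6, and 12720 of the 17148 genes tested had at least 1. Each sequence is the 250 bases before the start, 5′ to 3′ on the strand of the gene. Capitals mark matches to TGACGTG, an element of CREB3L and XBP1 factors, to CACTTNA, a core of NKX2 factors, or to TATAAA, the TATA box. The genes were chosen after their matches were seen, and a match is a description of letters only. Nkx2-3 (chr19:43612075-43612324, plus strand) and Spdef (chr17:27728952-27729201, minus strand), a mucous cell factor described below, hold TGACGTG beginning 67 and 201 bases before the start.
Nkx2-3: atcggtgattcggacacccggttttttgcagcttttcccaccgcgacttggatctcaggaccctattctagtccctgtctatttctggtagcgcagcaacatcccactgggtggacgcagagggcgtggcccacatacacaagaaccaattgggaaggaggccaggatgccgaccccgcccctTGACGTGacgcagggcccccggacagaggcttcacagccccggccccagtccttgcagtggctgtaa
Spdef: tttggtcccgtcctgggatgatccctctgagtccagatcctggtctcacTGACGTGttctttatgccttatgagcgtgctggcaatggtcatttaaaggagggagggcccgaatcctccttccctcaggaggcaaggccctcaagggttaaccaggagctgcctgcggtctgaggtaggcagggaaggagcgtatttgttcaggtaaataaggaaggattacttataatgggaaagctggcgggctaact

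A2ml1 (chr6:128581607-128581856, minus strand) holds the NKX2 core on the other strand, beginning 91 bases before the start, and a TATA box at 30. Lman1l (chr9:57620775-57621024, minus strand) holds the NKX2 core on the other strand at 114.
A2ml1: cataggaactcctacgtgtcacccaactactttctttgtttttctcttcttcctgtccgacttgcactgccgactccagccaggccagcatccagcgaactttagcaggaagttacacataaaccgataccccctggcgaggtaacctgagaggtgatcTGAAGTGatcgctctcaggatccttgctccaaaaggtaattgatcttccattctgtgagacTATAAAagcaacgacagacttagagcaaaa
Lman1l: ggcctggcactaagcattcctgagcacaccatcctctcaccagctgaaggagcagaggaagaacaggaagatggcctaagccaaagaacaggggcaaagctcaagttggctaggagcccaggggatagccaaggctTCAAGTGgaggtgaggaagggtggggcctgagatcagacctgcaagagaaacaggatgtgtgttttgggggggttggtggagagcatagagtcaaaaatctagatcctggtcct

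The parotid genes shown for contrast are Amy1 (chr3:113574763-113575012, minus strand), whose second listed window holds a TATA box at 63, and Chia1 (chr3:106113132-106113381, plus strand), which holds a TATA box at 43 and the NKX2 core on the other strand at 120.
Amy1: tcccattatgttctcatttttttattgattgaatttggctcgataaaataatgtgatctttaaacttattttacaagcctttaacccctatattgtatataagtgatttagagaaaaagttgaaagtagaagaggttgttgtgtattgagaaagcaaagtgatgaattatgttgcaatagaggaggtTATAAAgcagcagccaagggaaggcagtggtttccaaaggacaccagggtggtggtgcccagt
Chia1: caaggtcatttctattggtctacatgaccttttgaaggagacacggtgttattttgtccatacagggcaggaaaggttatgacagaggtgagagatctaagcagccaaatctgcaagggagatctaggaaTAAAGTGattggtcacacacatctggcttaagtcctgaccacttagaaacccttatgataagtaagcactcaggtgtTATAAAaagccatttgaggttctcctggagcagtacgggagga

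The same letters were counted in the 300 bases from 250 before to 50 after each start. CACTTNA, on either strand, was in 32 of 169 windows (18.9%) of sublingual genes with at least a 16-fold difference and in 21 of 188 windows (11.2%) of parotid genes with such a difference. It was in 9.27% of windows of genes tested and 11.5% of all windows. TATAAA, on the strand of the gene only, was in 26 of 188 parotid windows (13.8%) and 8 of 169 sublingual windows (4.73%), against 5.06% of genes tested. TGACGTG, on either strand, was in 2.66% of parotid and 3.55% of sublingual windows, against 2.54% of genes tested. The other 5 motifs, on either strand, were CATTGTT for SOX, TGTTTAC for FOXA, TGACGTCA for the cyclic AMP response element, CATATG for BHLHA15 and GCCNNNGGC for AP-2. Of these, TGACGTCA was in 0% of parotid and 1.78% of sublingual windows, against 2.56% of genes tested, and the AP-2 letters were in 12.2% and 14.8%, against 23.2%. The shares were 4.26% and 4.73% against 2.24% for SOX, 5.85% and 5.33% against 2.82% for FOXA, and 3.72% and 4.73% against 1.97% for BHLHA15. TGACGTG and TGACGTCA share their first 6 letters, but no run of letters matches both. Among the 24 regulators named here and below, 19 had a window, and those of Nkx2-3, Spdef and Lmx1b held TGACGTG.

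Known serous products were mostly parotid genes, and a pair of defence proteins were sublingual. Of 17 tested, 12 were called higher in parotid (70.6%) and 2 higher in sublingual (11.8%), beside 14.3% and 10.9% of all genes. Their median difference was 5.55, against 0.04 over all genes tested. Bpifa2, parotid secretory protein, was at 144000 to 646000 CPM in parotid (median 328000) and 3290 to 13200 CPM in sublingual (5.55 ± 0.65, adjusted p = 1.33e-05). Car6, the secreted carbonic anhydrase, was at 4430 to 38000 CPM against 296 to 1230 CPM, and Pip, prolactin-induced protein, at 2770 to 23800 CPM against 191 to 942 CPM. Prh1, an acidic proline-rich protein, was at 0.607 to 52.8 CPM against 0.0146 to 0.34 CPM. Pigr, which carries immunoglobulin A across the epithelium, was instead at 1510 to 2090 CPM in sublingual and 61.7 to 796 CPM in parotid (-2.34 ± 0.28, adjusted p = 1.56e-05). Ltf, lactoferrin, was at 12.7 to 308 CPM in sublingual (median 161) and 0.882 to 130 CPM in parotid (-3.56 ± 0.84, adjusted p = 0.00306). In sublingual it was at 12.7 to 30.5 CPM in C57 and 161 to 308 CPM in CD1, and the call was lost in C57 alone (-1.24, adjusted p = 0.333) and in females (-3.24, adjusted p = 0.124). Its highest parotid value was in C57 female 1, the library with lacrimal markers, as was that of Sval2, at 474 CPM against 12.1 CPM or less in the other parotid libraries. Dmbt1, Lyz1 and Klk1 were not called (0.70 ± 0.33, 0.88 ± 0.36 and 0.84 ± 0.29). The count was 13 and 1 in the 4 animals low in lymphoid markers, where Ltf lost the call (-1.79, adjusted p = 0.438 by edgeR).

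The list of mucous products divided between the glands. Of 13 tested, 5 were called higher in sublingual (38.5%) and 4 higher in parotid (30.8%), beside 10.9% and 14.3% of all genes. Their median difference was 0.24. Beside Muc19, the sublingual members were Dcpp2, Dcpp3, Agr2 and Fcgbp. Dcpp2, a demilune cell and parotid protein, was at 22700 to 45000 CPM in sublingual and 778 to 7710 CPM in parotid (-3.83 ± 0.48, adjusted p = 2.45e-05). Its neighbour in sequence Dcpp1 was at 5540 to 18100 CPM and 3430 to 20200 CPM (0.08 ± 0.28, adjusted p = 0.814), and reads may be divided among these copies. Agr2, a disulfide isomerase needed for mucin folding, was at 11.5 to 69.9 CPM in sublingual (median 43.5), and at 0.568 to 1.99 CPM in 10 parotid libraries with 72.8 CPM in C57 female 1. Fcgbp, an Fc gamma binding protein of mucus, was at 49.1 to 95.7 CPM in sublingual and 1.79 to 126 CPM in parotid, with the highest in C57 female 2. Muc6, a mucin better known from stomach, was higher in parotid at 0.548 to 2.44 CPM against 0 to 0.475 CPM. Muc2, Tff2 and Zg16 were not called, and 9 of the 22 listed genes, among them Muc5b and Muc5ac, were too low to test. In the animals low in lymphoid markers 2 and 3 were called, and Dcpp3, Agr2 and Fcgbp lost the call (-2.91, -4.13 and -1.13, adjusted p = 0.0576, 0.0509 and 0.253 by edgeR).

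Enzymes that start mucin-type O-glycans were called in both directions, and 5 of those tested were not called. They attach N-acetylgalactosamine to serine and threonine, and each isoenzyme prefers other peptide sites. Of 15 tested, 7 were called higher in sublingual (46.7%) and 3 higher in parotid (20%), beside 10.9% and 14.3% of all genes. The same counts were found in the animals low in lymphoid markers. Galnt4 was at 212 to 385 CPM in sublingual (median 257) and 15.6 to 30.1 CPM in parotid (-3.64 ± 0.09, adjusted p = 5.14e-11). Galnt7, which acts on sites that already carry a sugar, was at 183 to 746 CPM (median 518) against 25.6 to 55.1 CPM (-3.82 ± 0.21). Galnt12 was at 202 to 263 CPM against 12.9 to 31.1 CPM (-3.61 ± 0.13). The glands did not overlap for these or for Galnt2 and Galnt10, at -1.45 ± 0.09 and -1.67 ± 0.16. Galntl6 reached 41.9 CPM in sublingual but overlapped, with 1.54 CPM or less in parotid. Galnt1 was the reverse, at 101 to 330 CPM in parotid (median 188) and 12.4 to 28.1 CPM in sublingual (3.36 ± 0.15, adjusted p = 3.28e-09). Galnt15 and Galnt16 were also parotid genes, at 2.43 ± 0.25 and 2.35 ± 0.40. Galnt3 was at a median of 171 CPM in parotid and 174 CPM in sublingual (0.10 ± 0.23, adjusted p = 0.728). Per kilobase of transcript, the highest mean level was that of Galnt3 in parotid (51.4 CPM per kb), next to Galnt1 (45.9), and that of Galnt7 in sublingual (118), followed by Galnt12 (95).

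Enzymes of chain cores and branches were also called in both directions. Of 21 core and extension enzymes tested, 9 were called higher in sublingual (42.9%) and 5 higher in parotid (23.8%). The shares of all genes were 10.9% and 14.3%. All 9 sublingual members were without overlap, against 59.2% of all sublingual calls. Sublingual members were B3gnt6 for core 3, given above, and Gcnt3, which makes core 2 and core 4 branches, at 11.3 to 23.3 CPM against 0.136 to 0.897 CPM (-5.51 ± 0.33, adjusted p = 3.92e-08). A4gnt, which caps chains with alpha-linked N-acetylglucosamine in gastric mucin, was at 3.95 to 58.3 CPM against 0 to 0.571 CPM (-6.51 ± 0.46). B3galt5, which galactosylates core 3, was at 160 to 227 CPM against 6.42 to 44.2 CPM (-3.10 ± 0.21). B4galt1, the main Golgi galactosyltransferase, was at 196 to 265 CPM against 63.7 to 89.3 CPM (-1.57 ± 0.08). C1galt1, which makes core 1, was at 20.4 to 29.5 CPM against 7.56 to 20.2 CPM (-1.04 ± 0.12), and was under 2-fold without C57 female 2 (-0.98). Its chaperone C1galt1c1 was under 2-fold (-0.86 ± 0.18). The parotid members included B4galnt3, which makes the LacdiNAc unit, at 20 to 230 CPM (median 122) against 5.11 to 15.6 CPM (3.84 ± 0.32, adjusted p = 8.02e-07), and B4galt6 at 2.46 ± 0.20. Gcnt1, the core 2 enzyme, was at 51.8 to 185 CPM in parotid and 0.982 to 31.1 CPM in sublingual (3.66 ± 0.59). Its sublingual level was 0.982 to 2.92 CPM in C57 and 18.1 to 31.1 CPM in CD1, and the difference of the gland effect between strains missed the threshold (adjusted p = 0.0695). B3gnt5 and B4galt5 were also called, but in the 4 animals low in lymphoid markers their mean log2 differences were 0.31 and -0.17. There the counts were 9 and 3.

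Capping enzymes of both glands were called as well. Of 21 tested, 5 were called higher in sublingual (23.8%) and 9 higher in parotid (42.9%), beside 10.9% and 14.3% of all genes. All 5 sublingual members were without overlap, against 59.2% of all sublingual calls. St3gal1, which adds sialic acid to core 1, was at 1480 to 2390 CPM in sublingual (median 1910) and 61.2 to 102 CPM in parotid (-4.53 ± 0.12, adjusted p = 6.21e-11). St3gal4 was at 464 to 677 CPM against 22.2 to 138 CPM (-3.70 ± 0.27). St3gal3 and the fucosyltransferases Fut4 and Fut9 followed at -1.74 ± 0.21, -2.58 ± 0.25 and -2.34 ± 0.32. St3gal6, a sialyltransferase of type 2 chains, was the leading parotid member, at 40.3 to 206 CPM (median 139) against 1.11 to 3.2 CPM (5.81 ± 0.20, adjusted p = 5.43e-10). St6galnac2, which sialylates the inner N-acetylgalactosamine, was at 24.3 to 156 CPM against 3.35 to 8.29 CPM (3.38 ± 0.25). St6galnac1 and the sulfotransferase Chst1 were at 3.53 ± 0.43 and 3.66 ± 0.57. St6gal1 and Fut7 were called at 2.37 ± 0.57 and 3.42 ± 0.96, with mean log2 differences of 0.09 and 0.10 in the animals low in lymphoid markers. In those animals 5 were called in sublingual and 4 in parotid.

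**Figure D3:**
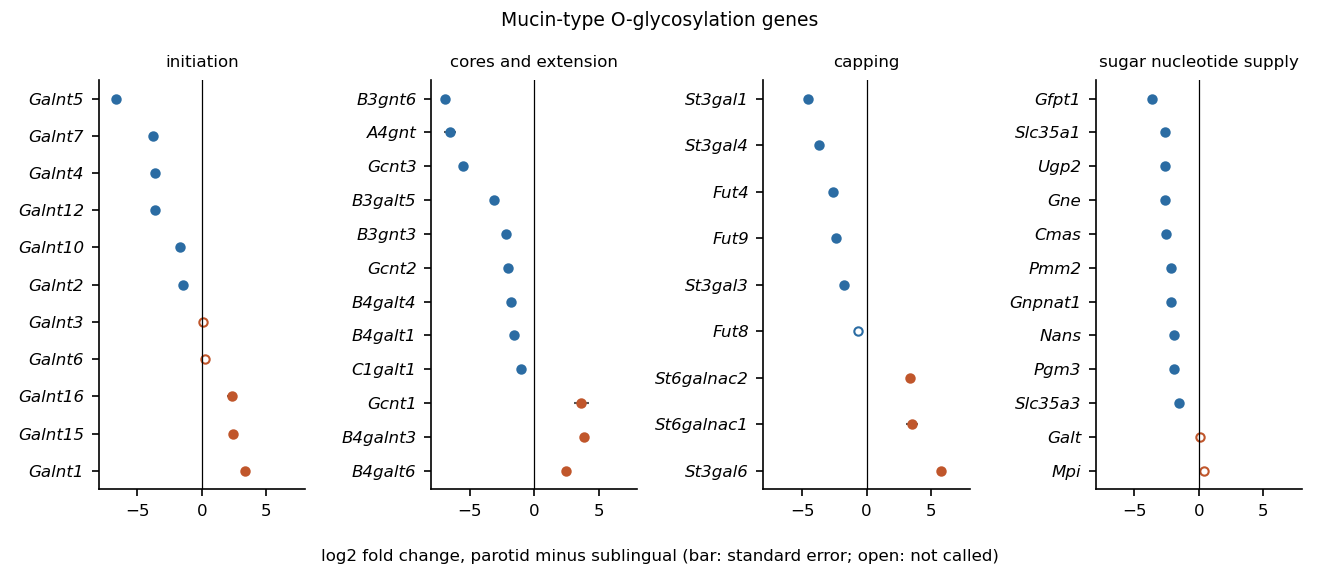
Log2 fold change (parotid minus sublingual, bars SE) of selected O-glycosylation genes in panels by step, with open points for genes not called. Galnt1, St3gal6 and B4galnt3 lie at 3.36, 5.81 and 3.84 on the parotid side, and Galnt5, B3gnt6 and St3gal1 at -6.67, -6.92 and -4.53 on the sublingual side.

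The supply of activated sugars went in 1 direction. Of 31 genes tested, 19 were called higher in sublingual (61.3%) and none higher in parotid, beside 10.9% and 14.3% of all genes. Of the 19, 17 were without overlap, against 59.2% of all sublingual calls, and the median of the list was -1.52. The fit in the animals low in lymphoid markers called 17 and 0. Gfpt1, the first and rate-limiting enzyme of the hexosamine pathway, was at 1440 to 2560 CPM in sublingual (median 2250) and 69.4 to 281 CPM in parotid (-3.66 ± 0.23, adjusted p = 4.93e-08). Gnpnat1, Pgm3 and Uap1, which complete UDP-N-acetylglucosamine, were at -2.14 ± 0.15, -1.90 ± 0.13 and -1.28 ± 0.15, the last under 2-fold in the animals low in lymphoid markers (-0.84). Gne, the key enzyme of sialic acid synthesis, was at 1040 to 1320 CPM against 75.1 to 330 CPM (-2.62 ± 0.21, adjusted p = 4.96e-07). Cmas, which activates sialic acid in the nucleus, was at 269 to 374 CPM against 41.7 to 71.4 CPM (-2.58 ± 0.12). Slc35a1, which brings CMP-sialic acid into the Golgi, was at 140 to 253 CPM against 21.2 to 42.9 CPM (-2.66 ± 0.15). Ugp2, which makes UDP-glucose, was at -2.64 ± 0.24. The fucose branch was called too, with Gfus at -1.60 ± 0.17 and its Golgi carrier Slc35c1 at -1.89 ± 0.12. Slc26a2, a sulfate carrier, was at -2.04 ± 0.16. Galt of galactose salvage and the mannose enzymes Pmm1 and Mpi were not called, at 0.11 ± 0.12, 0.37 ± 0.15 and 0.36 ± 0.15.

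Folding genes of the endoplasmic reticulum were mostly at like levels. Of 49 tested, 10 were called higher in sublingual (20.4%) and 2 higher in parotid (4.08%), beside 10.9% and 14.3% of all genes. Over both directions the share of 24.5% was near the 25.3% of all genes. The central chaperones Hspa5, Hsp90b1, Calr and Canx differed by 0.15 ± 0.17, -0.14 ± 0.11, 0.03 ± 0.11 and -0.04 ± 0.10. The sublingual calls included oxidoreductases and a stress sensor, and 9 in sublingual and 4 in parotid were called in the animals low in lymphoid markers. Pdia5 was at 71.5 to 142 CPM in sublingual and 6.68 to 13.7 CPM in parotid (-3.29 ± 0.13, adjusted p = 1e-09), and Txndc5 at 645 to 1010 CPM against 136 to 312 CPM (-1.99 ± 0.16). Eif2ak3, the kinase PERK, was at 139 to 225 CPM against 40.4 to 101 CPM (-1.72 ± 0.15), whereas the sensors Ern1 and Atf6 were at -0.35 ± 0.17 and -0.44 ± 0.13. Edem3, which trims mannose from misfolded glycoproteins, was at -1.56 ± 0.18. The parotid calls were Derl3, a retrotranslocation factor, at 43 to 325 CPM against 19.2 to 43.3 CPM (2.40 ± 0.26), and Ero1b, an oxidase of secretory cells, at 50.2 to 157 CPM against 21.6 to 37 CPM (1.64 ± 0.17). Xbp1 was under 2-fold, at 185 to 826 CPM in parotid and 612 to 902 CPM in sublingual (-0.94 ± 0.21, adjusted p = 0.00238).

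Granule and exocytosis genes were called in both directions. Of 39 tested, 14 were called higher in sublingual (35.9%) and 7 higher in parotid (17.9%), beside 10.9% and 14.3% of all genes. Besides Syt7, given above, Cpe, a carboxypeptidase of regulated secretion, was at 272 to 374 CPM in sublingual and 25.9 to 79.5 CPM in parotid (-3.18 ± 0.17, adjusted p = 1.45e-08). Pam, which amidates peptides, was at 314 to 474 CPM against 66.7 to 147 CPM (-1.97 ± 0.13). Rab3d and Rab27a, small GTPases of secretory granules, were at -1.32 ± 0.22 and -1.16 ± 0.13, and the effectors Sytl3 and Exph5 at -1.97 ± 0.24 and -2.02 ± 0.24. Rab26, a GTPase of acinar granule maturation, was the parotid counterpart, at 5.38 to 34.4 CPM (median 19) against 1.28 to 6.08 CPM (2.60 ± 0.24, adjusted p = 1.76e-06). Rab37 and Unc13d were called in parotid at 3.61 ± 0.77 and 2.62 ± 0.68, with mean log2 differences of 0.42 and 0.11 in the animals low in lymphoid markers. The SNARE genes Vamp2, Vamp8 and Snap23 were under 2-fold, at -0.33 ± 0.09, -0.37 ± 0.11 and -0.96 ± 0.07. In those 4 animals 9 were called in sublingual and 1 in parotid, and Rab3d was under 2-fold (-0.79).

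Receptors of the secretory nerves were divided by gland. Chrm1, the M1 muscarinic receptor, was at 23.4 to 34.3 CPM in sublingual (median 28.8) and 0.822 to 5.68 CPM in parotid (-3.21 ± 0.24, adjusted p = 2.76e-07). Chrm3, the M3 receptor of salivary acini, was at 34.1 to 56.7 CPM and 8.12 to 48.7 CPM and was under 2-fold (-0.73 ± 0.22, adjusted p = 0.0126). Adrb1, the beta-1 adrenergic receptor, was at 7.48 to 56.2 CPM in parotid (median 34.4) and 2.67 to 8.64 CPM in sublingual (2.67 ± 0.23, adjusted p = 1.13e-06). Adra1a, an alpha-1 receptor that signals through calcium, was at 4.77 to 19.5 CPM against 0.205 to 1.24 CPM with no overlap (4.27 ± 0.27, adjusted p = 6.27e-08). In the animals low in lymphoid markers their mean log2 differences were 2.53 and 3.70. Vipr1 and Vipr2, receptors for vasoactive intestinal peptide, were sublingual genes without overlap, at 108 to 165 CPM against 13.6 to 56.9 CPM and at 2.11 to 5.22 CPM against 0.199 to 0.92 CPM (-2.49 ± 0.20 and -2.86 ± 0.30).

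Downstream of these receptors the lists differed in balance. Of 50 adrenergic, peptide and cyclic AMP genes tested, 22 were called higher in parotid (44%) and 6 higher in sublingual (12%). The shares of all genes were 14.3% and 10.9%, and 10 and 5 were called in the animals low in lymphoid markers. Pde3a, a phosphodiesterase that breaks down cyclic AMP, was at 6.83 to 34.5 CPM in parotid and 0.614 to 1.86 CPM in sublingual (4.23 ± 0.28, adjusted p = 1.03e-07). Prkacb, a catalytic subunit of protein kinase A, was at 59.8 to 115 CPM against 31.5 to 45 CPM (1.12 ± 0.10, and 0.90 in the fit of those animals, under 2-fold), and Pde8a was at 1.36 ± 0.09. Besides Vipr1 and Vipr2, the sublingual members included the adenylyl cyclases Adcy2, at -2.46 ± 0.37, and Adcy8, which calcium stimulates, at 39.2 to 99.7 CPM against 3.95 to 35.7 CPM (-1.97 ± 0.20), and the phosphodiesterase Pde4d at -1.42 ± 0.09. Gnas and Prkaca were not called, at 0.05 ± 0.11 and 0.05 ± 0.13.

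The calcium branch was more balanced. Of 42 muscarinic and calcium genes tested, 8 were called higher in sublingual (19%) and 7 higher in parotid (16.7%). The shares of all genes were 10.9% and 14.3%, and 8 and 4 were called in the animals low in lymphoid markers. Atp2a3, a calcium pump of the endoplasmic reticulum, was at 3470 to 5250 CPM in sublingual (median 4510) and 350 to 1240 CPM in parotid (-2.57 ± 0.20, adjusted p = 3.35e-07). Stim2, a sensor of store calcium, was at 69.7 to 82.9 CPM against 21.6 to 30.5 CPM (-1.63 ± 0.07, adjusted p = 3.09e-09), while its relative Stim1 differed by 0.18 ± 0.07. Trpv6, a calcium entry channel, was at 11.9 to 28.4 CPM against 0.607 to 6.76 CPM (-3.37 ± 0.29). The parotid side held Rgs2 and Rgs5, which quicken the shut-off of G proteins, at 1.61 ± 0.17 and 1.57 ± 0.18. The inositol trisphosphate receptors Itpr1, Itpr2 and Itpr3 were under 2-fold, at -0.54 ± 0.11, 0.14 ± 0.08 and 0.39 ± 0.12.

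Some central genes of fluid secretion were not called, while the water channel Aqp5 and several other transport genes were. Of 63 ion and water transport genes tested, 14 were called higher in parotid (22.2%) and 13 higher in sublingual (20.6%). The shares of all genes were 14.3% and 10.9%. In the animals low in lymphoid markers 15 and 10 were called. Slc12a2, the sodium-potassium-chloride cotransporter, and Ano1, the calcium-activated chloride channel, were not called, at -0.67 ± 0.23 and 0.45 ± 0.21. Kcnn4, a calcium-activated potassium channel, was under 2-fold, at 183 to 1030 CPM in parotid and 285 to 406 CPM in sublingual (0.81 ± 0.20, adjusted p = 0.0047). Aqp5, the apical water channel, was higher in sublingual without overlap, at 458 to 662 CPM against 55.7 to 413 CPM (-1.32 ± 0.24, adjusted p = 0.000544). In the fit of the 4 animals low in lymphoid markers it was not called (-0.76, adjusted p = 0.0785). Kcne1 has been given above, while its pore partner Kcnq1 differed by -0.14 ± 0.25.

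Exchangers and anhydrases of bicarbonate handling were called in both glands. Slc26a6, an anion exchanger, was at 92.8 to 192 CPM in sublingual and 6.44 to 10.8 CPM in parotid (-3.94 ± 0.14, adjusted p = 5.43e-10). Car12, a membrane carbonic anhydrase, was at 221 to 343 CPM against 26.7 to 160 CPM (-1.88 ± 0.19), and Kcnk1, a potassium channel, was at 134 to 217 CPM against 16.4 to 79.4 CPM (-2.0 ± 0.24). Car2, the cytosolic anhydrase, was a parotid gene at 22.5 to 91.1 CPM against 15.7 to 25.5 CPM (1.54 ± 0.20), as was Slc9a3, a sodium-proton exchanger (2.28 ± 0.31). Car3, which fat and muscle are known to express, was called in parotid at 57.1 to 4790 CPM. It was highest in C57 female 2, and the part of those tissues was not tested.

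**Figure D4:**
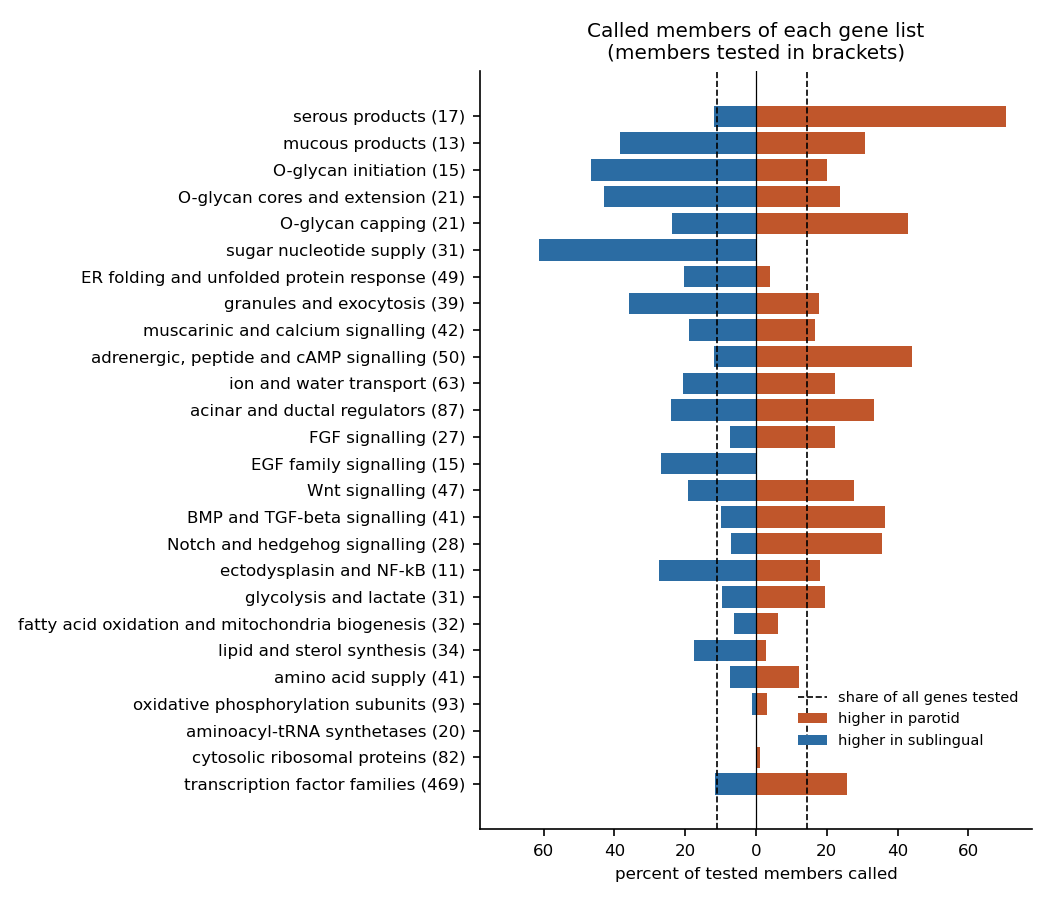
Percent of the tested members of each gene list called higher in parotid and higher in sublingual, with the number tested in brackets. The sugar nucleotide list has 61.3% on the sublingual side and 0% on the parotid side, while the adrenergic and cyclic AMP list has 44% on the parotid side and 12% on the sublingual side.

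Transcription factors were called in both directions, more of them in parotid. Of 469 members of transcription factor families tested, 121 were called higher in parotid (25.8%) and 54 higher in sublingual (11.5%), beside 14.3% and 10.9% of all genes. Without overlap were 23 of the parotid and 38 of the sublingual members, against 20.5% and 59.2% of all parotid and sublingual calls. In the animals low in lymphoid markers the counts were 54 and 41. Mucous cell factors were among the sublingual members. Spdef, an ETS factor of goblet and mucous cells, was at 306 to 482 CPM in sublingual (median 365) and 7.75 to 49 CPM in parotid (-3.78 ± 0.24, adjusted p = 7.01e-08). Creb3l4 and Creb3l1, membrane-bound factors released from the endoplasmic reticulum and Golgi, were at 200 to 364 CPM against 3.07 to 13.6 CPM (-5.39 ± 0.20) and at 533 to 1040 CPM against 24.9 to 198 CPM (-2.69 ± 0.24). Their relative Creb3l2 was not called (0.31 ± 0.20).

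Further sublingual regulators came from several families. Isl2, a LIM homeobox factor, was at 27.4 to 44 CPM in sublingual and 0.156 to 0.787 CPM in parotid (-6.72 ± 0.24, adjusted p = 5.43e-10). Tlx1, a homeobox factor known from spleen development, was at 40.9 to 52.8 CPM against 0.299 to 2.64 CPM (-5.75 ± 0.29). Foxp2 was at 8.19 to 19.5 CPM against 0.357 to 1.43 CPM (-3.90 ± 0.19), and Tbx1, a T-box factor of the pharyngeal arches, at 19.2 to 31.7 CPM against 0.642 to 8.77 CPM (-3.13 ± 0.35). Hey1, a Notch target, and Esrrg, an orphan nuclear receptor, were at -2.95 ± 0.27 and -2.95 ± 0.11. All 12 named sublingual regulators were without overlap, against 59.2% of all sublingual calls, but their choice by size and by 1 sign in every animal favours this. Foxa1 varied most among them within parotid, where C57 female 2 had 60.5 CPM, C57 female 1 had 20.7 CPM and the other 9 libraries had 4.53 CPM or less.

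The parotid regulators were of different stability. Pax9, a paired box factor of the pharyngeal endoderm, was at 57.9 to 509 CPM in parotid (median 325) and 37.7 to 58.6 CPM in sublingual (2.62 ± 0.28, adjusted p = 5.73e-06). Tfap2b, an AP-2 factor of the face and neural crest, was at 5.77 to 74.9 CPM against 0.49 to 4.02 CPM (4.32 ± 0.39, adjusted p = 1.36e-06). Lmx1b, a LIM homeobox factor, was at 2.35 to 22.5 CPM against 0.389 to 2.21 CPM (3.63 ± 0.32, adjusted p = 1.12e-06). In the animals low in lymphoid markers their mean log2 differences were as large, at 2.97, 4.72 and 3.65. The lowest parotid value of all 3 genes was in CD1 female 2, the library with the highest lymphoid marker sum.

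Of the other 9 named parotid regulators, 8 had smaller mean log2 differences in those animals than in the other 7. Myb, known from progenitors of blood and epithelium, was at 1.39 to 18.5 CPM against 0.0621 to 0.398 CPM (4.55 ± 0.55), and its mean log2 difference was 1.81 there and 3.47 in the other 7. Ets1 was at 13.6 to 465 CPM against 7.23 to 12.7 CPM (3.04 ± 0.56), with 0.89 there and 4.11 in the other 7. Egr3, an immediate early gene, was at 1.01 to 53.1 CPM against 0.107 to 1.68 CPM (4.09 ± 0.57), with 1.42 there. Erg and Mef2c, at 2.24 ± 0.32 and 2.06 ± 0.29, had 0.96 and 1.0 there, and Ebf1, Meox2 and Id3, at 2.42 ± 0.23, 3.09 ± 0.40 and 1.90 ± 0.23, had 1.86, 1.87 and 1.16. Esr1, the estrogen receptor, was at 1.05 to 28.2 CPM against 0.311 to 1.4 CPM (2.11 ± 0.43), with 1.72 there, 1.54 in the other 7 and its highest value in C57 female 2. Ets1 and Esr1 lost the call in the fit of those 4 animals. Several of these factors are known from lymphocytes or endothelium, whose markers were also higher in parotid, and their part was not tested. The lymphoid factors Lef1 and Tcf7 reached 88 and 191 CPM in parotid, at 5.21 ± 1.08 and 4.50 ± 1.03, and had mean log2 differences of 0.13 and 0.50 in the animals low in lymphoid markers.

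**Figure D5:**
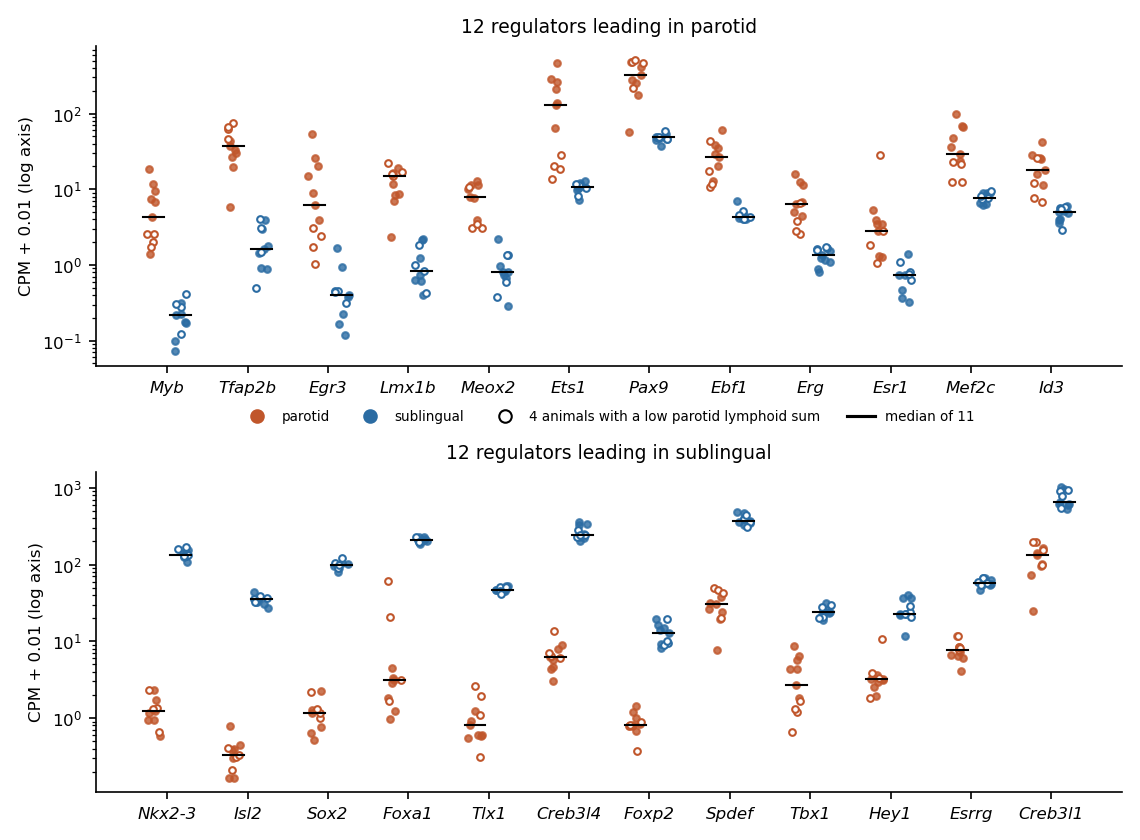
Level (CPM + 0.01, log axis) of the named regulators in every library, with open points for the 4 animals low in lymphoid markers and a line at the median of 11. Open parotid points lie at 13.6 to 28.6 CPM for Ets1, at the low end of its 13.6 to 465 CPM, but at 46.6 to 74.9 CPM for Tfap2b, at the high end of its 5.77 to 74.9 CPM.

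A list of acinar and ductal regulators known from gland biology was called in both directions. Of 87 tested, 29 were higher in parotid (33.3%) and 21 higher in sublingual (24.1%), beside 14.3% and 10.9% of all genes. Without overlap were 5 and 18 of them, against 20.5% and 59.2% of all parotid and sublingual calls. In the animals low in lymphoid markers 20 and 16 were called. Sox10, a factor of acinar and myoepithelial progenitors, was at 17.4 to 272 CPM in parotid (median 151) and 32.2 to 52.2 CPM in sublingual (1.84 ± 0.29, adjusted p = 0.000168). Sox9 was the reverse, at 120 to 151 CPM in sublingual and 17.2 to 84.7 CPM in parotid (-1.35 ± 0.19). Ehf and Klf5, epithelial factors, were at 506 to 631 CPM against 46.4 to 287 CPM (-1.77 ± 0.22) and at 34.8 to 52 CPM against 2.5 to 17.3 CPM (-2.18 ± 0.20). Tfcp2l1, a ductal factor, was at 337 to 662 CPM against 20.8 to 258 CPM (-1.89 ± 0.29). Barx2, Foxc1 and Meis2 were parotid genes at 1.5 ± 0.25, 1.1 ± 0.24 and 1.35 ± 0.23, with mean log2 differences of 1.87, 1.51 and 1.73 in the animals low in lymphoid markers. Without the parotid libraries rich in muscle markers Sox10, Barx2, Foxc1 and Meis2 were not called (1.48, 1.25, 0.93 and 1.03, adjusted p = 0.0668, 0.0544, 0.151 and 0.086 by edgeR), and Foxc1 was under 2-fold without CD1 female 1 (0.99). Bhlha15, the acinar factor MIST1, fell just short of 2-fold, at 74.9 to 705 CPM in parotid and 166 to 269 CPM in sublingual (0.99 ± 0.26, adjusted p = 0.0054). Elf3 and Ascl3 were not called (-0.07 ± 0.23 and 0.10 ± 0.31).

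Developmental signalling lists held single genes of large difference. Of 47 Wnt genes tested, 13 were called higher in parotid (27.7%) and 9 higher in sublingual (19.1%), beside 14.3% and 10.9% of all genes. The receptor Fzd9 was at 2.25 to 15.9 CPM in parotid and 0.27 to 1.3 CPM in sublingual (3.58 ± 0.34, adjusted p = 2.51e-06). The secreted antagonists divided, with Sfrp2 at 4.07 to 30.1 CPM in parotid against 0.551 to 3.6 CPM (2.61 ± 0.34) and Sfrp1 at 36.6 to 91.9 CPM in sublingual against 3.95 to 18 CPM (-2.46 ± 0.22). The ligand Wnt5b was at 11.9 to 17.3 CPM in sublingual against 1.9 to 5.88 CPM (-2.13 ± 0.16). In the animals low in lymphoid markers 9 and 4 were called.

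Of 41 BMP and TGF-beta genes tested, 15 were higher in parotid (36.6%) and 4 higher in sublingual (9.76%). The shares of all genes were 14.3% and 10.9%. In the animals low in lymphoid markers 10 and 2 were called. Chrdl1, a BMP antagonist, was at 1.45 to 18.1 CPM in parotid against 0.164 to 1.11 CPM (4.35 ± 0.42, adjusted p = 2.43e-06). Inhbb, an activin subunit, was at 43.4 to 63.2 CPM in sublingual, and at 2.58 to 6.86 CPM in 10 parotid libraries with 55.5 CPM in C57 female 2 (-3.14 ± 0.33). Of 28 Notch and hedgehog genes, 10 were higher in parotid (35.7%) and 2 higher in sublingual (7.14%), beside the same shares of all genes. The parotid members included the ligand Jag1, at 11.2 to 30.7 CPM against 5.69 to 9.38 CPM (1.51 ± 0.13). Notch1 and Notch3 were at 1.74 ± 0.21 and 1.43 ± 0.18. Of this list, 6 and 2 were called in the animals low in lymphoid markers.

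Over both directions, the FGF and EGF family lists had called shares near that of all genes, and the ectodysplasin and NF-kB list had a larger one. Of 27 FGF genes tested, 6 were higher in parotid (22.2%) and 2 higher in sublingual (7.41%), beside 14.3% and 10.9% of all genes. Together this was 29.6%, beside 25.3% of all genes, and 4 and 1 were called in the animals low in lymphoid markers. The receptor Fgfr2 was at 10.3 to 77.3 CPM in parotid and 10.8 to 16 CPM in sublingual (1.36 ± 0.22, and 1.02 with an adjusted p of 0.0555 without the muscle-rich parotid libraries), and the ligand Fgf1 at 65.9 to 127 CPM in sublingual against 9.57 to 53.1 CPM (-1.82 ± 0.17). Of 15 EGF family genes, 4 were higher in sublingual (26.7%) and none in parotid, beside 10.9% and 14.3% of all genes, and 3 and 1 were called in the animals low in lymphoid markers. The 4 were the ligands Nrg1 and Nrg2 at -2.71 ± 0.25 and -1.60 ± 0.14, the receptor Erbb3 at -1.13 ± 0.20 and the inhibitor Lrig1 at -1.22 ± 0.10. Erbb3 was under 2-fold without CD1 female 2 (-0.98), and Erbb3 and Lrig1 were so in the animals low in lymphoid markers (-0.64 and -0.91). Egf itself was under 2-fold (-0.53 ± 0.17). Of 11 ectodysplasin and NF-kB genes, 3 were sublingual (27.3%) and 2 parotid (18.2%), together 45.5%, and 3 and 0 in the animals low in lymphoid markers. Tnfrsf19, a receptor of the tumour necrosis factor family, was at 41.2 to 71.7 CPM in sublingual against 0.814 to 6.49 CPM in parotid (-4.47 ± 0.28, adjusted p = 4.85e-08).

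Metabolic lists had called shares of 0% to 29%, beside 25.3% of all genes. Of 93 subunits of oxidative phosphorylation tested, 3 were higher in parotid and 1 higher in sublingual (4.3%), with 0 of 20 aminoacyl-tRNA synthetases and 1 of 82 cytosolic ribosomal protein genes. The medians of the 3 lists were 0.28, -0.11 and 0.49. The calls of these lists in the animals low in lymphoid markers were 3 and 0, 1 and 0, and 2 and 0. In fatty acid oxidation 2 and 2 of 32 were called (12.5%), and 1 and 1 there. Of 41 amino acid supply genes, 5 were higher in parotid (12.2%) and 3 higher in sublingual (7.32%), beside 14.3% and 10.9% of all genes. In the animals low in lymphoid markers 14 and 3 were called. The cationic carrier Slc7a2 was at 5.83 to 69.2 CPM in parotid (median 25) against 4.26 to 7.31 CPM (2.21 ± 0.25, adjusted p = 1.01e-05). The glutamine carriers Slc38a1 and Slc38a5 were at 256 to 316 CPM in sublingual against 55.2 to 113 CPM (-1.71 ± 0.10) and at 4.93 to 19.7 CPM against 0.248 to 1.27 CPM (-4.15 ± 0.25). Slc36a2, known from fat and muscle, was at 0.862 to 154 CPM in parotid, highest in C57 female 2, and 0.166 to 0.716 CPM in sublingual.

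Lipid and sterol synthesis was called in sublingual for 6 of 34 genes (17.6%) and in parotid for Fasn alone (2.94%), beside 10.9% and 14.3% of all genes. The share over both directions was 20.6%, beside 25.3% of all genes. Insig1, a sterol sensor partner, was at 158 to 1640 CPM in sublingual against 50.3 to 384 CPM in parotid (-1.70 ± 0.36). Fasn, fatty acid synthase, was at 96.8 to 4380 CPM in parotid (median 209) against 59 to 121 CPM, in libraries whose adipocyte markers also ranged widely. In the animals low in lymphoid markers 2 and 1 were called, with neither Insig1 (-0.73) nor Fasn (2.13, adjusted p = 0.117) among them. Of 31 glycolytic genes 6 were called in parotid (19.4%) and 3 in sublingual (9.68%), beside 14.3% and 10.9% of all genes, and 3 and 2 in those animals. Gapdh and Aldoa, enzymes that nearly all cells use, were counted at 8.42 to 68.6 CPM and 2.16 to 6.78 CPM in parotid. How reads that match several places were counted is not given in the sources used here, so levels of glycolytic, oxidative phosphorylation and ribosomal protein genes with copies elsewhere are uncertain. Aldoc was at 25 to 47.6 CPM in sublingual against 3.09 to 13.5 CPM (-2.36 ± 0.20), while the muscle isoenzymes Pgam2 and Eno3 were parotid genes at 3.11 ± 0.73 and 1.29 ± 0.26, beside the higher muscle markers of parotid. Without the muscle-rich parotid libraries they were not called (0.92 and 0.65). Pfkfb3 was at 2.26 ± 0.47 and Slc2a3 at 2.41 ± 0.60, with mean log2 differences of 1.06 and 0.13 in the animals low in lymphoid markers, where neither was called.

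The gland difference was tested against strain and sex. The difference between strains was called for 4 of 17148 genes (0.0233%) by edgeR at an adjusted p under 0.05, with 1301 at an unadjusted p under 0.05, and DESeq2 called 174. The difference between sexes was called for none by edgeR, with 310 at an unadjusted p under 0.05, and for 1 gene by DESeq2. Of the strain-dependent genes, Nxpe4 was at 165 to 404 CPM in the 5 C57 sublingual libraries and 2.33 to 8.62 CPM in the 6 CD1 ones, with 0.627 to 6.07 CPM in parotid of either strain. Dlk1, a Notch-family ligand of progenitor cells, was at 6.9 to 55 CPM in CD1 sublingual and 0.45 to 0.809 CPM in C57 sublingual. Dcpp3 was at 25300 to 47700 CPM in C57 sublingual and 63.1 to 373 CPM in CD1 sublingual, and also differed in parotid, at 1530 to 3440 CPM and 42.9 to 237 CPM. Its gland difference was not called between strains (adjusted p = 0.0695).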

How the data were processed

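Poly(A) RNA was sequenced from 60 mouse tissue libraries, and the 22 parotid and sublingual libraries of 11 animals were compared. The authors deposited a table of raw counts per gene. Reads were trimmed with Trim Galore, aligned with HISAT2 and counted with featureCounts on GRCm39, per the submitters' processing notes; versions, strand setting and whether pairs were counted as 1 are not given in the sources used here. The start and end given for most genes bound 1 exon, so positions on that build are not printed.

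Of 41079 genes, 17148 passed edgeR's expression filter by gland. They were tested with edgeR 4.0.16 (limma 3.58.1, R 4.3.3) by the quasi-likelihood F test on counts with TMM scaling, gland and animal in the model, and Benjamini-Hochberg adjustment over all genes tested. The SE was obtained by dividing the size of the log2 fold change by the root of F. Strain and sex were tested as interactions with gland in the same design. Counts were simulated for 11 pairs and 17378 genes, of which 200 were changed, a smaller share than was called in the data. An adjusted p under 0.05 was reached by 63.3% of genes changed 2-fold and 87.4% of those changed 4-fold. All had the right sign, and 1.36% of the genes that passed were false. The 2-fold limit of a call was not applied there, so recovery under the full rule was not measured.

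The members and gene lists were chosen with earlier results of these data known, and some lists overlap the cell type markers. The leading genes were the 15 largest differences in each direction among called genes with 1 sign in all 11 animals and a mean of at least 50 CPM in the higher gland. The regulators were the 12 largest among transcription factor families with a mean of at least 5 CPM. List members were named by size, and uncalled members for contrast. Interaction genes were the 5 smallest p at 10 CPM or more. Identifier-only names, pseudogenes and ribosomal protein genes were not eligible.

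Animal identity comes from the library names, so animal was a block in the model; the correlation of same-animal deviations lay between -0.255 and 0.305. Over 20 pairs of replicate libraries, chi-square per degree of freedom was 19.7 to 707, so none was taken for a repeat deposit. No sequencing batch is labelled. Promoter windows were RefSeq's on GRCm38.p6, matched by gene symbol, and no coordinate was carried between builds. Alternatives were DESeq2 1.42.0, other scaling factors, no filter, no block, single strains or sexes, and each animal left out. Fits without lymphoid-rich, fat-rich or muscle-rich parotid libraries were chosen after seeing the data.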

Additional observations from a re-analysis of the deposited data

Results flagged for a closer look

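The gland difference of 4 genes differed between the strains by the interaction test (edgeR, Benjamini-Hochberg adjustment, 6 CD1 and 5 C57 animals). In each of them the strains did not overlap in sublingual gland, which their choice by this test favours. For Dlk1 the interaction, CD1 minus C57, was -5.206 ± 0.49 log2 units (adjusted p = 0.00687), with 6.9 to 55 CPM in CD1 sublingual, 0.45 to 0.809 CPM in C57 sublingual, and 0.749 to 2.7 CPM and 0.947 to 2.41 CPM in CD1 and C57 parotid. For Lgr5, a stem cell receptor for R-spondin, it was 5.456 ± 0.63 (adjusted p = 0.0187), with 0.124 to 0.444 CPM in CD1 sublingual, 5.01 to 15.2 CPM in C57 sublingual and 0.978 CPM or less in parotid. For Nxpe4 it was 3.979 ± 0.46 (adjusted p = 0.0187), with 2.33 to 8.62 CPM and 165 to 404 CPM in CD1 and C57 sublingual and 0.627 to 2.21 CPM and 2.59 to 6.07 CPM in CD1 and C57 parotid. For Camk2b, a calcium/calmodulin kinase subunit, it was 3.902 ± 0.48 (adjusted p = 0.0234), with 0.199 to 0.479 CPM and 9.12 to 11.6 CPM in CD1 and C57 sublingual and 0.837 to 5.18 CPM in parotid. When each animal was left out, the adjusted p passed 0.05 in 7 of 11 fits for Camk2b, in 4 for Lgr5 and Nxpe4 and in 1 for Dlk1, up to 0.132, 0.126, 0.126 and 0.0758, with the sign kept. Lgr5 and Camk2b were named after their values were seen.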

How the results depend on the processing

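The main count of 4332 called genes was 4081 to 4573 when each animal was left out. It was 4580 (2775 parotid, 1805 sublingual) with no replicate block for the animal, 4341 with DESeq2's size factors, 4392 without the 20 most abundant genes, 4523 with DESeq2 and 4173 with animal C57 male 2 added. With no expression filter it was 5817, in CD1 4507, in C57 3102 and in males 4663. It moved to 2698 in females, of which 1236 were parotid and 1462 sublingual, and to 2721 in the 4 animals low in lymphoid markers, fits of fewer animals; the cause was not tested. Without the fat-rich or the muscle-rich parotid libraries it was 4049 and 4270. The 4 genes with a strain-dependent gland difference became 13 with no filter, 174 with DESeq2, 10 with C57 male 2 added and 29 with no replicate block, and 0 to 7 when each animal was left out. They were 1 without C57 male 1, C57 female 1 or CD1 female 3, 0 without C57 male 3 and 7 without CD1 female 2. Dlk1 lost the call without C57 male 3. Lgr5 and Nxpe4 lost it without C57 male 1, C57 male 3, C57 female 1 or CD1 female 3, and Camk2b without these, CD1 female 1, C57 female 2 or C57 female 3. The 0 genes with a sex-dependent difference became 1 without the 20 most abundant genes, 1 with no filter, 1 with DESeq2 and 0 to 1 when each animal was left out. No gene called with all 11 animals was called in the opposite direction in the fits of a strain or a sex. The same held without the tissue-rich libraries. The fits of the strains were not compared with each other for this count. Of the genes named, 23 lost the call in the 4 animals low in lymphoid markers, 16 in females, 11 in C57, 10 without the muscle-rich parotid libraries, 5 in CD1, 3 without the fat-rich ones and 2 in males; the cause was not tested. When each animal was left out, C1galt1 fell to -0.98 without C57 female 2, Erbb3 to -0.98 without CD1 female 2 and Foxc1 to 0.99 without CD1 female 1, all still at an adjusted p under 0.05. The sign changed for B4galt5 in the 4 animals low in lymphoid markers (-0.12). In C57 alone it changed for Camk2b (-1.53) and Dlk1 (1.39), which were called there but not over both strains.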
